A study of Aconitum carmichaelii with 4 samples.

Results

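The leaf and the open flower of Aconitum carmichaelii were compared unigene by unigene. A. carmichaelii is a medicinal aconite whose toxic and pharmacologically active diterpene alkaloids accumulate mainly in the root. A unigene is an assembled transcript, and one Trinity gene, the assembler's estimate of a locus, can hold several. The comparison took every unigene longer than 500 bases to which at least 40 fragments (read pairs) were assigned in the leaf and flower libraries together. This left 22198 of the 128183 unigenes, of 46697 that were longer than 500 bases, and they belonged to 16346 Trinity genes. The plants were 3 years old, untreated and grown outdoors, and all tissues carried the same plant material number. Flower, bud, leaf and root gave 1 strand-specific library each, and nothing in the labels says whether a library came from 1 plant or from several. There is thus no replicate of any tissue, no p-value between tissues was computed, and variation between plants was not measured.

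Plants make the building blocks of terpenoids, isopentenyl diphosphate and dimethylallyl diphosphate, along separate routes. The mevalonate (MVA) route runs in the cytosol and feeds sesquiterpenes and sterols, and the methylerythritol phosphate (MEP) route runs in plastids and feeds monoterpenes, carotenoids, the side chain of chlorophyll and diterpenes, including the gibberellins. Leaves are the main photosynthetic organ, whereas an open flower holds petals, stamens with pollen and carpels, and can release volatile terpenes. In whole organs such as these, fewer cells of a type and less RNA per cell cannot be told apart.

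The leaf library held 5400853 fragments and the flower library 7057551, of which 91.6% and 86.7% fell on the unigenes compared. Levels are given as TPM, a measure that corrects for transcript length and is scaled to the same sum in every library. A unigene was called higher in one tissue where its TPM ratio was at least 2 and the exact 95% interval of the ratio excluded 1. The interval covers counting error only. Its upper limit was 3.78-fold its lower limit at the median of unigenes with 40 to 59 fragments, and 1.25-fold at the median of those with 1000 or more. A count of 0 was set to 3 fragments, and the fold is then given as "at least", a value that leaves out the counting error of the other library. One unannotated unigene of 8896 bases, TR43559|c0_g1_i1, singled out after its values were seen, took 842454 leaf fragments, or 15.6% of the leaf library, against 74492 in flower, 312375 in bud and 2466 in root. A pair of further long unannotated unigenes was abundant in the aerial organs and nearly lacking in root, TR27664|c0_g1_i1 with 41816 fragments in leaf, 17866 in flower and 2 in root, and TR34533|c0_g1_i1 with 20916, 70311 and 13. Whether these 3 transcripts come from the plant is not known from the sources used here. On the scale of FPKM, which divides by all mapped fragments, TR43559|c0_g1_i1 weighed on every leaf value. FPKM shifted all log2 ratios of leaf to flower by -0.41 relative to TPM and gave 2933 unigenes higher in leaf and 6647 higher in flower, and without TR43559|c0_g1_i1 the FPKM counts were 3560 and 5359. TMM scaling over the unigenes compared shifted the ratios by -0.01 and TMM over all unigenes by -0.10.

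The tissue labels were checked against a few marker genes. The plastid-encoded transcript for psbE, a part of photosystem II, had 26 fragments in leaf, 6 in flower, 2 in bud and 0 in root. That for psbK, another part, had 12, 3, 2 and 8, and its root level of 3.81 TPM was not far below the 5.92 TPM in leaf. That for subunit 4 of the plastid NADH dehydrogenase (ndhD) had 48 in leaf, 6 in flower, 9 in bud and 24 in root. Of the other plastid-encoded transcripts listed, chloroplast RF2 went the other way, with 1 fragment in leaf, 15 in flower, 19 in bud and 1 in root, and RF1 had 1, 3, 3 and 9. The root-abundant synthases KS1, KS2 and CDPS4 had 1, 0 and 5 fragments in leaf and 4, 3 and 14 in flower, against 135, 213 and 112 in root. The study had described these synthases as high in root from these same libraries, so they are no independent check of the labels. The flower check, a family similar to the MADS-box regulator FRUITFULL (FUL), which acts in inflorescence and fruit identity in Arabidopsis, went against its label. Its 4 unigenes with enough fragments stood at 47.6 to 80.3 TPM in leaf and 11.6 to 13.1 TPM in flower. The other 3 unigenes of that family stayed below the minimum in both, with 70 to 92 fragments in root. No other flower-defining gene was checked, so the flower label rests on the sample description.

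Of the 22198 unigenes, 4171 were higher in leaf (18.8% of those compared) and 4482 higher in flower (20.2%), and 13545 were not called. These shares are the background for every gene list below. Only 571 of the 22198 unigenes had an informative name in the sources used here, so rankings of named unigenes cover that part alone. With TMM scaling the counts were 4131 (18.6%) and 4514 (20.3%), where every leaf call was also a leaf call with TPM and every flower call with TPM was kept. The median log2 ratio of leaf to flower TPM was -0.03, and the 5th and 95th percentiles were -3.48 and 2.77, a longer tail towards flower. At 4-fold or more the calls were 1953 (8.8%) for leaf and 2292 (10.3%) for flower, and at 10-fold or more 752 (3.39%) and 1216 (5.48%). No leaf fragment was found for 366 unigenes and no flower fragment for 55. The flower library was the deeper one, with 7057551 fragments against 5400853 in leaf. At equal TPM a unigene thus had more fragments in flower, and flower-high unigenes passed the raw count minimum at a lower TPM. How far this shaped the tails, the 10-fold calls and the counts of 0 was not tested. The unigenes higher in leaf made up 31.3% of all leaf TPM and 4.73% of all flower TPM, and those higher in flower 20.99% of flower TPM and 3.74% of leaf TPM. At the count minimum, the 219 unigenes with exactly 40 fragments had a median log2 ratio of -0.26, and the 235 with 39, which were left out, had -0.04.

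**Figure D1:**
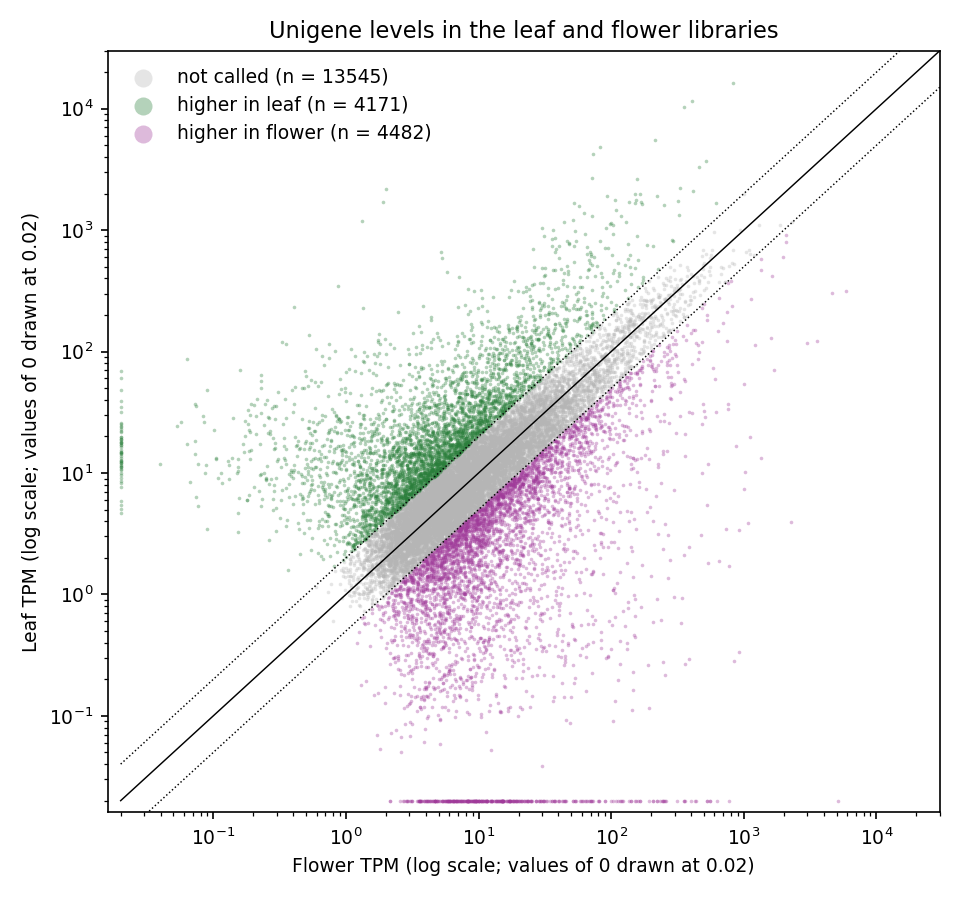
TPM of each of the 22198 unigenes in flower (horizontal) and leaf (vertical), both on log scales, with values of 0 drawn at 0.02. The solid line marks equal levels and the dotted lines 2-fold differences, and most points lie between the dotted lines (13528 unigenes), with 366 in a row at a leaf level of 0.

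The MVA route held flower calls and no leaf call, and most of the flower calls came from a single locus. Of its 17 listed unigenes 13 had enough fragments, and 5 were higher in flower, 0 in leaf and 8 not called, with a median log2 ratio of leaf to flower of -0.72. HMG-CoA reductase (HMGR), the rate-limiting step of the route, gave 3 of the 5 calls. HMGR1 stood at 2.44 TPM in leaf, 28.98 in flower, 48.9 in bud and 65.1 in root, and was 11.9-fold, 95% interval 6.12 to 26.4, higher in flower than in leaf. HMGR2 was 8.34-fold, 95% interval 5.72 to 12.6, higher and HMGR3 4.21-fold, 95% interval 3.23 to 5.58, higher in flower. These 3 unigenes belong to a single Trinity gene and share reads, so they are not independent. Their summed level was 10.2 TPM in leaf, the lowest of the organs, against 71.9 in flower, 105.5 in bud and 150.2 in root. With counts summed over each Trinity gene, 2 of 8 loci of the route were called in flower (25%), near the 20.5% of all 17834 Trinity genes compared in that way. On the FPKM scale 8 unigenes were called in flower.

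The other MVA steps differed less. At the first step, the acetyl-CoA acetyltransferase AACT1 had 2 fragments in leaf and 75 in flower (21.6-fold, 95% interval 5.78 to 182, higher in flower) and was highest in bud at 32.7 TPM, while AACT3 and AACT4 stood at 12.2 and 13.4 TPM in leaf and 18.8 and 18.01 in flower, within 2-fold. HMG-CoA synthase, the step before HMGR, was called for HMGS3 (3.99 TPM in leaf and 8.30 in flower, 2.08-fold, 95% interval 1.44 to 3.06) and not for HMGS2 (3.16 and 5.21 TPM) or HMGS4 (14.8 and 16.7 TPM). The kinases and the decarboxylase that follow were not called. Mevalonate kinase stood at 9.32 TPM in leaf and 15.9 in flower, PMK3, a phosphomevalonate kinase, at 12.1 and 10.4, and the diphosphomevalonate decarboxylases MVDD1 and MVDD2 at 2.28 to 3.49 TPM in either organ.

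The MEP route held leaf calls at some later steps and a flower call at its first. Of 21 listed unigenes 13 had enough fragments, of which 5 were higher in leaf, 1 in flower and 7 not called (median log2 ratio 0.69). The flower call was the largest of the route. DXS10, one of the synthases of deoxyxylulose phosphate that open the route, stood at 8.47 TPM in leaf, 163 in flower, 11.5 in bud and 17.8 in root, and was 19.3-fold, 95% interval 16.01 to 23.4, higher in flower. The other deoxyxylulose phosphate synthases with enough fragments, each from its own Trinity gene, did not share this pattern, since DXS9 stood at 56.6 TPM in leaf and 35.03 in flower and DXS11 at 10.2 and 10.1. In all, the listed DXS unigenes summed to 87.9 TPM in leaf and 215.6 in flower. The reductoisomerase DXR, the second step, was at 53.2 TPM in leaf and 73.1 in flower.

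The leaf calls of the MEP route fell on later steps. ISPD, which attaches the nucleotide CMP to the intermediate, had 3 unigenes of a single Trinity gene, each called, with ISPD3 the farthest apart at 13.8 TPM in leaf and 4.15 in flower (3.33-fold, 95% interval 2.35 to 4.77). ISPF, which closes the ring of the cyclodiphosphate, stood at 136 TPM in leaf and 57.1 in flower (2.37-fold, 95% interval 2.10 to 2.68). IPPI1, an isomerase that interconverts the final building blocks, stood at 199 TPM in leaf, 65.8 in flower, 38.04 in bud and 104 in root (3.03-fold, 95% interval 2.77 to 3.31, higher in leaf), whereas IPPI2 was at 12.1 and 11.4 TPM. The abundant last reductive steps were close to even, with ISPG at 153 TPM in leaf and 120.02 in flower and ISPH at 250.1 and 199.98. ISPE, a kinase, stood at 13.2 and 7.61 TPM, 1.74-fold, 95% interval 1.32 to 2.28, higher in leaf and below the 2-fold limit. With counts summed over each Trinity gene 3 of 11 loci of the route were called in leaf (27.3%, against 18.6% over all Trinity genes). In flower 1 locus was called (9.09%, against 20.5%). With so few loci, neither share sets the route apart from the background. On the FPKM scale 3 unigenes were called in leaf.

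**Figure D2:**
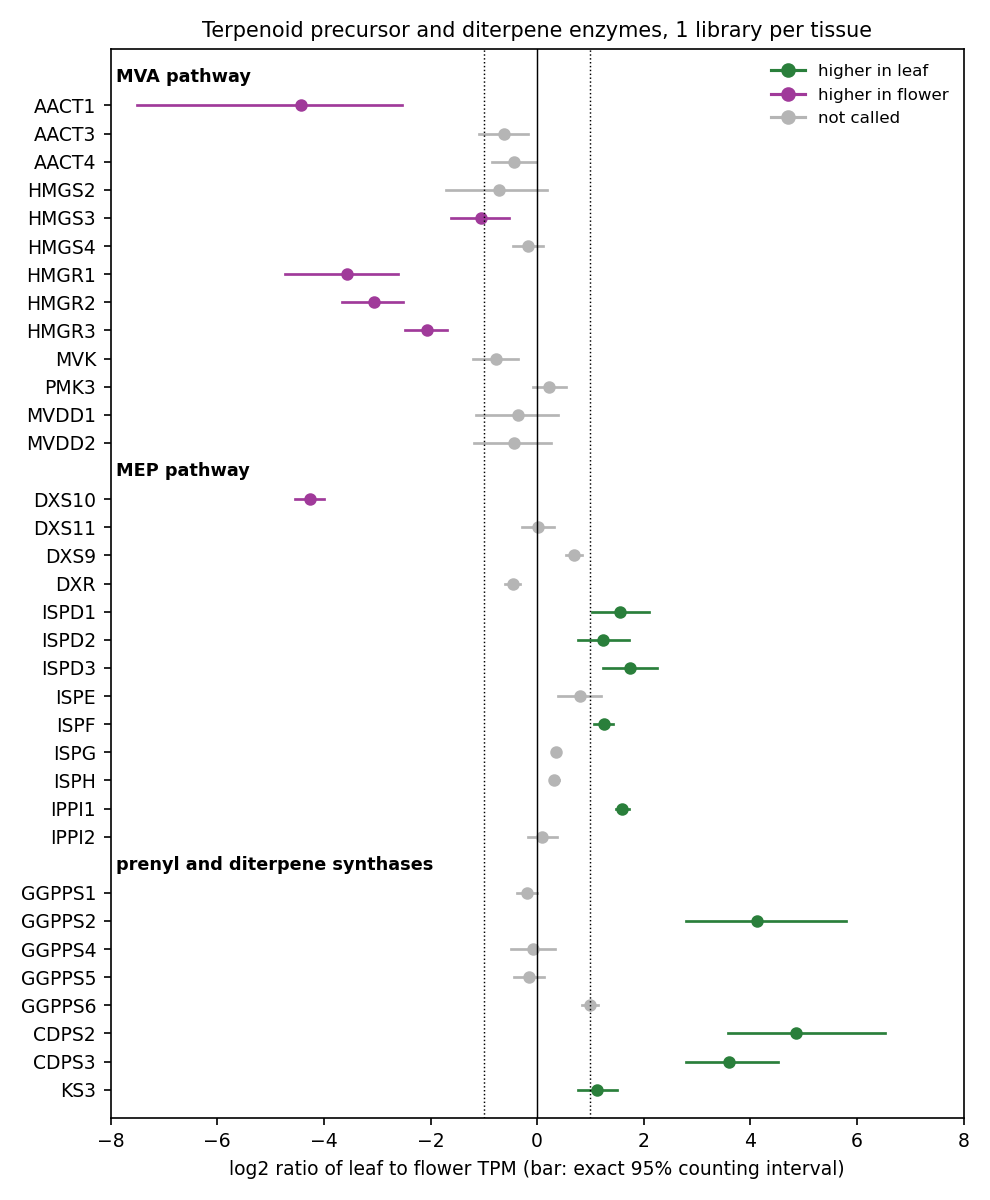
Log2 ratio of leaf to flower TPM (horizontal) for the 34 MVA, MEP and prenyl and diterpene synthase unigenes with enough fragments. Points to the left are higher in flower, bars are exact 95% counting intervals, dotted lines mark 2-fold, and the HMGR unigenes, AACT1 and DXS10 lie farthest to the left.

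Downstream, unigenes with enough fragments for enzymes that join the building blocks and fold them into diterpene skeletons were called in leaf or not at all. Of 14 listed unigenes 8 had enough fragments, of which 4 were higher in leaf and 4 not called (median log2 ratio 1.06). Copalyl diphosphate synthase (CDPS), which starts both gibberellin and diterpene alkaloid skeletons, gave the widest difference. CDPS2 stood at 24.03 TPM in leaf, 0.826 in flower, 4.67 in bud and 0 in root (29.1-fold, 95% interval 11.98 to 91.9, higher in leaf), and CDPS3 at 12.2 TPM in leaf and 1.005 in flower (12.1-fold, 95% interval 6.91 to 23.04). Kaurene synthase KS3, the next step, stood at 12.3 TPM in leaf, 5.61 in flower and 27.96 in bud (2.19-fold, 95% interval 1.70 to 2.82, higher in leaf). Of the geranylgeranyl diphosphate synthases, which supply the C20 precursor, GGPPS2 was called at 8.33 TPM in leaf against 0.480 in flower (17.3-fold, 95% interval 6.96 to 55.7). GGPPS6, the most abundant, stood at 106 TPM in leaf and 53.3 in flower (1.98-fold, 95% interval 1.80 to 2.19, just under the limit), and GGPPS1, GGPPS4 and GGPPS5 lay within 1.14-fold. CDPS2, CDPS3 and GGPPS2 each rested on 5 to 14 flower fragments. Of the unigenes below the minimum, the root-abundant CDPS4, KS1 and KS2 and also GGPPS3 and GGPPS7 had a higher TPM in flower. They rested on 3 to 16 flower fragments and 0 to 6 leaf fragments each, too few to set a direction, and were not called. None of them exceeded 3.64 TPM in either organ. CDPS1, also below the minimum, went the other way, at 4.32 TPM in leaf and 0.499 in flower, on 15 and 3 fragments.

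The cytochrome P450s add oxygen to terpene skeletons. Of 21 P450 unigenes that the study had picked from these same libraries for high expression in root together with CDPS4 and KS2, 9 had enough leaf and flower fragments, and 5 were higher in leaf, 1 in flower and 3 not called. The list was chosen on these samples and is not independent evidence. TR47900|c2_g2_i6 stood at 33.2 TPM in leaf, 3.84 in flower and 92.4 in root (8.66-fold, 95% interval 5.50 to 14.2, higher in leaf than in flower), and TR47900|c2_g2_i2 at 22.04, 3.23 and 50.1 TPM. The exception was TR45571|c1_g2_i1, with 9 fragments in leaf and 41 in flower (2.62-fold, 95% interval 1.26 to 6.14, higher in flower). Of the 5 leaf calls, 4 came from 2 Trinity genes, TR47900|c0_g2 and TR47900|c2_g2.

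A family similar to CYP82A3 was called throughout and split by gene copy. It held 7 listed unigenes, all with enough fragments, of which 3 were higher in leaf and 4 in flower. It was listed together with a separate P450 family, whose 3 unigenes are those of TR47900|c2_g2, already counted among the 5 leaf calls above. The 4 flower calls were unigenes of a single Trinity gene, TR40144|c3_g1. TR40144|c3_g1_i2 stood at 6.86 TPM in leaf, 106 in flower, 1.88 in bud and 0 in root (15.4-fold, 95% interval 12.2 to 19.7, higher in flower). Its neighbour in the assembly, TR40144|c3_g2_i2, stood at 67.2 TPM in leaf and 7.79 in flower (8.63-fold, 95% interval 6.78 to 11.1, higher in leaf). TR48176|c3_g1_i3, at 55.3 TPM in leaf, 8.16 in flower and 55.9 in root, was 6.78-fold, 95% interval 5.51 to 8.39, higher in leaf.

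The volatile terpene synthases were carried in flower by a single unigene. Of 17 listed unigenes 9 had enough fragments, and 3 were higher in flower, 0 in leaf and 6 not called. TR47604|c1_g4_i5, similar to a plastid myrcene synthase, which makes a monoterpene scent compound, had 1003 fragments in flower, 0 in leaf, 1 in bud and 2 in root, 248 of the 300.9 TPM the list reached in flower (at least 193-fold higher than in leaf). TR40366|c1_g3_i6, of the same kind, had 2 fragments in leaf and 67 in flower (19.4-fold, 95% interval 5.16 to 163, higher in flower). The unigenes described as santalene synthase, a sesquiterpene enzyme, all came from 1 Trinity gene, of which the most abundant, TR45580|c1_g3_i5, stood at 7.35 TPM in leaf, 6.19 in flower and 17.2 in bud. A further unigene assigned to monoterpenoid biosynthesis, TR30402|c0_g1_i1, taken from a list of transcripts active in leaf only and named after its values were seen, had 41 fragments in leaf and 0 in the other libraries.

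Aromatic metabolism was called mainly in flower. Of 23 listed phenylpropanoid and flavonoid unigenes 10 had enough fragments, of which 5 were higher in flower, 2 in leaf and 3 not called (median log2 ratio -1.24). An orcinol O-methyltransferase homolog, an enzyme that makes floral scent phenols in roses, was at the front. TR32830|c0_g3_i1 had 3 fragments in leaf and 895 in flower, at 84.3 TPM in flower and 16.1 in bud (172-fold, 95% interval 58.7 to 836, higher in flower). A family member, TR40251|c3_g2_i3, went the other way, at 32.7 TPM in leaf and 6.85 in flower (4.77-fold, 95% interval 3.76 to 6.10, higher in leaf), and its level was far above both in root, at 1026 TPM. Among the acyltransferases, TR46845|c1_g1_i2 stood at 12.9 TPM in leaf and 79.2 in flower (6.13-fold, 95% interval 4.68 to 8.17), and TR40066|c2_g1_i4, similar to an anthranilate N-benzoyltransferase, had 3 fragments in leaf and 78 in flower.

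Cell growth genes were called in flower more often than the background of 20.2%. Of the histone and cell cycle list, 13 of 34 unigenes had enough fragments, and 9 were higher in flower, 0 in leaf and 4 not called (median log2 ratio -1.46). Summed over Trinity genes, 6 of its 8 loci were called in flower. Histone H4, a core nucleosome protein made in dividing cells, had 1 fragment in leaf and 646 in flower for TR39336|c2_g1_i1, at 131 TPM in flower, 387 in bud and 24.7 in root (373-fold, 95% interval 66.8 to 14770.4, higher in flower). Histone H3 was split, since TR34723|c0_g5_i1 stood at 2.56 TPM in leaf and 24.5 in flower (9.58-fold, 95% interval 4.50 to 24.4) and the abundant TR37253|c2_g1_i3 at 348 and 380.2. The 4 unigenes with enough fragments described as retinoblastoma-related proteins, which restrain entry into the cell cycle, were higher in flower, together 19.8 TPM in leaf and 51.6 in flower. Of 17 listed unigenes for small RNA and DNA methylation 11 had enough fragments, of which 4 were higher in flower, 1 in leaf and 6 not called. All 4 DNA (cytosine-5)-methyltransferase unigenes with enough fragments were higher in flower, among them TR46739|c0_g1_i1 with 0 fragments in leaf, 93 in flower and 295 in bud (at least 17.9-fold). The Argonaute unigenes of the same list, which carry small RNAs, were near even at 114.3 TPM in leaf and 121.2 in flower.

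The cytoskeleton list divided between tubulin and actin. Of 56 listed unigenes 35 had enough fragments, with 14 higher in flower, 3 in leaf and 18 not called (median log2 ratio -0.71). The tubulins, subunits of microtubules, held 13 of the 14 flower calls and no leaf call. The beta tubulin TR41353|c3_g2_i1 had 4 fragments in leaf and 2334 in flower, and stood at 0.450 TPM in leaf, 151 in flower, 204 in bud and 42.2 in root (336-fold, 95% interval 131 to 1235, higher in flower). The alpha tubulin TR42031|c3_g2_i1 stood at 3.99 TPM in leaf and 206 in flower (51.6-fold, 95% interval 37.8 to 72.3), and TR42031|c2_g1_i1 at 53.2 and 286. The most abundant actin, TR43897|c6_g1_i2, differed by less than 2-fold, at 226 TPM in leaf and 219 in flower, and lower actins such as TR32128|c0_g1_i1 (4.72 and 1.19 TPM) were higher in leaf.

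Cell wall and transport genes were also called mainly in flower. Of 53 listed cell wall unigenes 22 had enough fragments, with 8 higher in flower, 1 in leaf and 13 not called. The flower calls included the 3 glycosyl hydrolases of family 9 with enough fragments (10 listed), a family that holds plant endoglucanases. Together they stood at 0.251 TPM in leaf and 13.7 in flower, so they passed the minimum almost wholly through flower fragments. All 4 unigenes of a copper oxidase family with enough fragments (6 listed) were flower calls too. TR41402|c0_g1_i1, of glycosyl hydrolase family 9, had 0 fragments in leaf, 102 in flower and 646 in bud (at least 19.6-fold higher in flower than in leaf). TR34481|c0_g1_i1, described as an L-ascorbate oxidase homolog, had 0 in leaf, 108 in flower, 1 in bud and 0 in root (at least 20.7-fold). Of 51 listed nutrient and metabolite transporters 44 had enough fragments, with 21 higher in flower, 7 in leaf and 16 not called (median log2 ratio -0.81). The phosphate exporter family PHO1 had 4 of 5 unigenes higher in flower, summing to 5.21 TPM in leaf and 27.2 in flower. TR47002|c0_g1_i1, a half-size ABC transporter of the white-brown-complex family, had 612 flower fragments and 0 in leaf (at least 117-fold higher in flower), and its relative TR37791|c0_g1_i1 stood at 37.9 TPM in leaf and 4.61 in flower (8.22-fold, 95% interval 6.65 to 10.2, higher in leaf). TR44616|c0_g1_i1, a sulfate transporter homolog, was among the leaf calls at 65.8 and 9.13 TPM.

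Sugar metabolism was divided by family and by copy. Of 25 listed unigenes 18 had enough fragments, with 7 higher in leaf, 5 in flower and 6 not called. All 3 unigenes of a family described as beta-amylase, with beta-amylase 8 among the descriptions, were higher in leaf. Whether they act on starch was not tested. TR46967|c3_g3_i1 stood at 155 TPM in leaf, 37.8 in flower and 1.57 in root (4.11-fold, 95% interval 3.53 to 4.80). The SWEET family, which lets sucrose and hexoses leave cells, had 3 unigenes higher in flower and 1 in leaf. Together they stood at 16.8 TPM in leaf and 211.7 in flower. The most abundant in flower, the SWEET15 homolog TR36419|c0_g1_i1, had 0 fragments in leaf and root, 1345 in flower and 91 in bud. It stood at 123 TPM in flower (at least 258-fold higher than in leaf). The glycolytic and photosynthetic enzyme fructose-bisphosphate aldolase had copies in both directions. TR42946|c5_g1_i1 stood at 239.8 TPM in leaf, 29.9 in flower and 178 in root (8.03-fold, 95% interval 7.17 to 9.02, higher in leaf), and TR38524|c1_g1_i1 at 22.7 TPM in leaf and 138 in flower (6.11-fold, 95% interval 5.26 to 7.13, higher in flower). The trehalose phosphate synthases were mostly not called, at 98.2 TPM in leaf and 81.9 in flower for the larger family.

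**Figure D3:**
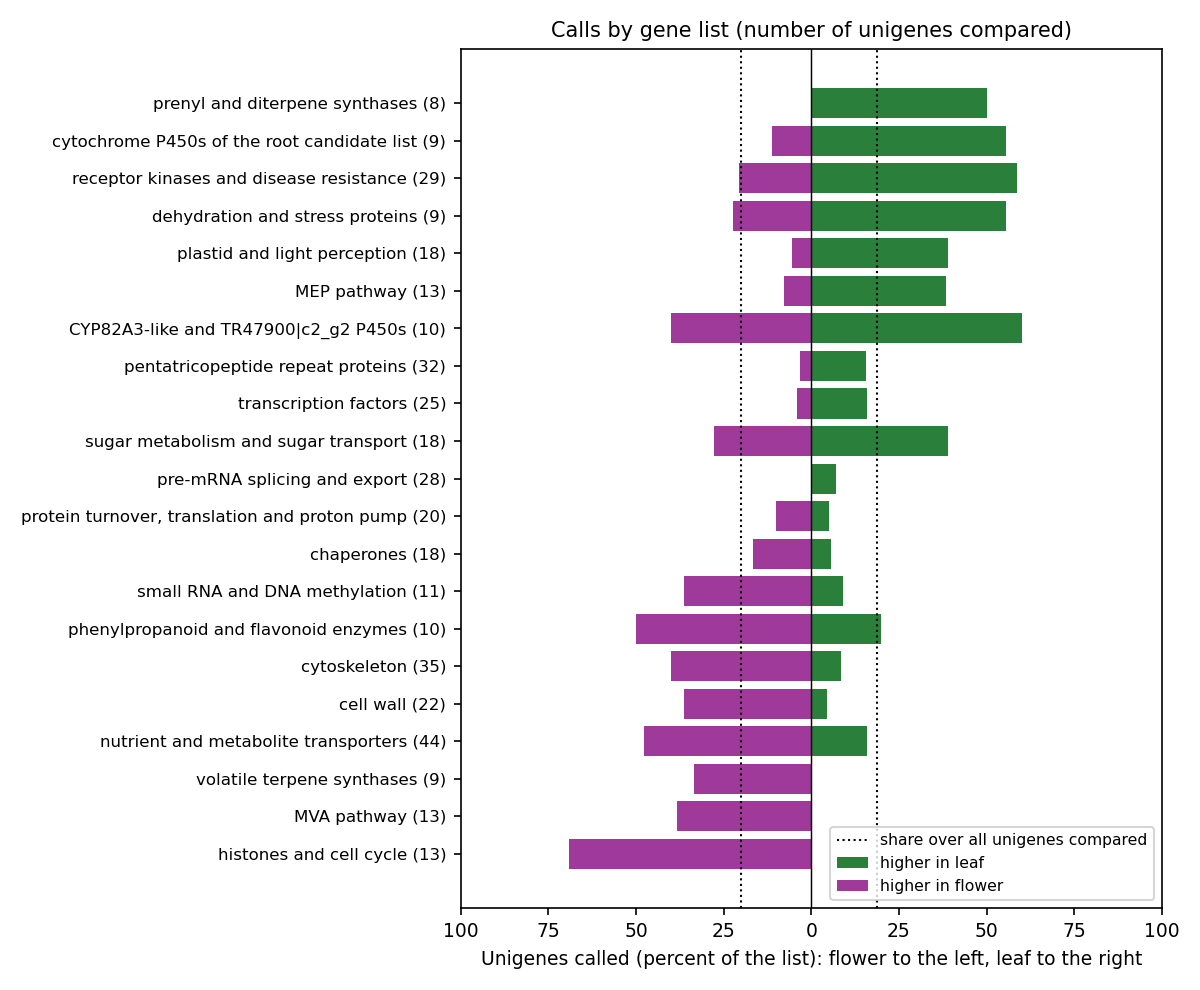
Percent of the unigenes of each gene list called higher in flower (bars to the left) and in leaf (bars to the right), with the number compared in brackets. Dotted lines mark the shares over all unigenes compared, 20.2% and 18.8%, and the flower bar of histones and cell cycle reaches farthest at 69.2%.

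In leaf, plastid and light genes gave 7 calls, most of them from a single locus. Of 33 listed unigenes 18 had enough fragments, with 7 higher in leaf, 1 in flower and 10 not called (median log2 ratio 0.93), and summed over Trinity genes 3 of 12 loci were called in leaf (25%, against 18.6% over all). The chaperonin that assembles the carbon-fixing enzyme Rubisco gave 4 of the 7 leaf calls from 1 Trinity gene, of which TR37670|c3_g1_i1 stood at 63.00 TPM in leaf and 7.78 in flower (8.10-fold, 95% interval 6.83 to 9.66). A further copy, TR38483|c0_g1_i1, was more abundant and not called, at 149 and 116 TPM. TR42749|c0_g1_i2, a cryptochrome, a receptor of blue light, was higher in leaf at 42.8 TPM against 19.2 (2.23-fold, 95% interval 1.98 to 2.52), and the phytochromes, receptors of red light, stood at 35.7 TPM in leaf and 23.2 in flower together with no call. The plastid ndhD transcript TR10995|c0_g1_i1 was 13.9-fold, 95% interval 5.93 to 39.7, higher in leaf.

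Among the 571 unigenes compared that had an informative name, the most abundant leaf call was a metallothionein, a small cysteine-rich protein that binds metal ions. TR36151|c1_g1_i4 stood at 4869.5 TPM in leaf, 82.2 in flower, 106 in bud and 0 in root (59.2-fold, 95% interval 52.96 to 66.4, higher in leaf than in flower). A different metallothionein, TR36151|c0_g4_i2, was higher in flower, at 239 TPM in leaf, 812 in flower and 971 in root (3.40-fold, 95% interval 3.12 to 3.72). Proteins with a BURP domain, which include the drought-induced RD22 of Arabidopsis, followed in leaf. TR39303|c1_g1_i2 stood at 471 TPM in leaf, 36.3 in flower and 1322 in root (12.98-fold, 95% interval 11.1 to 15.2, higher in leaf), and TR39303|c2_g1_i2 at 158 and 12.5 TPM. TR32793|c0_g1_i1, of the Bet v I family of ligand-binding proteins, was at 23.2 TPM in leaf, 194 in flower and 12120.2 in root. Over the list of dehydration and stress proteins, 9 of 24 unigenes had enough fragments, with 5 higher in leaf, 2 in flower and 2 not called.

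Receptor kinases and disease resistance genes, which perceive signals at the cell surface or pathogen proteins inside the cell, gave many leaf calls at low levels. Of 130 listed unigenes only 29 had enough fragments, and 17 were higher in leaf, 6 in flower and 6 not called (median log2 ratio 1.90). TR39767|c1_g2_i4, a cysteine-rich receptor kinase, had 40 fragments in leaf and 1 in flower (69.2-fold, 95% interval 11.7 to 2802, higher in leaf), and TR46629|c3_g4_i25, a kinase, had 38 and 2. The NSP-interacting kinases, leucine-rich repeat receptors, went the other way in 4 of 5 unigenes, for instance TR47343|c2_g1_i2 at 0.869 TPM in leaf and 10.7 in flower (12.3-fold, 95% interval 6.94 to 24.2, higher in flower). With a minimum of 100 fragments the list kept 4 unigenes, 0 of them higher in leaf, and its median log2 ratio was -1.81, so the direction of this list rests on unigenes with under 100 fragments.

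The FUL unigenes made up all 4 leaf calls among 25 transcription factor unigenes with enough fragments (41 listed, 1 higher in flower, 20 not called). TR39420|c0_g2_i1 stood at 80.3 TPM in leaf, 12.6 in flower, 13.9 in bud and 1.12 in root (6.38-fold, 95% interval 5.25 to 7.80, higher in leaf than in flower), and TR39420|c0_g1_i4, of the adjacent Trinity gene, at 56.97 and 11.6 TPM in leaf and flower (4.90-fold, 95% interval 3.91 to 6.19). The flower call was TR43342|c2_g1_i3, described as a GAGA-binding activator, with 15 fragments in leaf and 63 in flower. Auxin response factors, bZIP63 homologs and B3 domain proteins were not called, and the most abundant of them, TR46233|c0_g1_i4, stood at 12.7 TPM in leaf and 16.6 in flower.

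Basic cell machinery gave fewer calls than the background. Of 28 unigenes for pre-mRNA splicing and export (35 listed), 26 were not called. The other 2, RNA helicase unigenes, were higher in leaf, TR43488|c0_g2_i2 at 10.7 TPM against 5.11 and TR47722|c0_g1_i6 at 13.5 against 5.92. A further unigene of each Trinity gene was not called, TR43488|c0_g2_i1 at 1.59-fold and TR47722|c0_g1_i1 at 1.37-fold higher in leaf. Summed over Trinity genes, 0 of 9 loci of the splicing and export list were called in either organ, and on the FPKM scale 0 unigenes were. Of 32 pentatricopeptide repeat proteins (170 listed), which edit and process organelle RNA, 26 were not called, 5 were higher in leaf and 1 in flower, with TR37318|c0_g1_i1 the farthest apart at 53 fragments in leaf and 3 in flower. The ubiquitins were even, as for TR35249|c1_g1_i1 at 315 TPM in leaf and 315 in flower. In the same list of 20 unigenes (29 listed, 17 not called), elongation factor 2 (TR48137|c3_g3_i1) was higher in leaf at 162 TPM against 69.9. Subunits of the vacuolar proton pump such as TR38056|c2_g4_i1 were higher in flower, at 69.9 against 161 TPM. The 6 unigenes of that pump family had log2 ratios of leaf to flower from -1.21 to -0.45, and 2 were called. Together they stood at 382 TPM in leaf and 721 in flower.

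The chaperones, which refold proteins, held some of the most abundant named transcripts of both organs. Of 18 unigenes (25 listed) 14 were not called, 3 were higher in flower and 1 in leaf. All 3 flower calls were small heat shock proteins of class II, and the most abundant, TR40495|c1_g1_i2, stood at 598 TPM in leaf, 1957 in flower, 764 in bud and 19.7 in root (3.27-fold, 95% interval 3.10 to 3.46, higher in flower). The large chaperones of the HSP70 type were closer, with TR39105|c1_g1_i1 at 435 TPM in leaf and 676 in flower and TR45922|c5_g4_i1 at 371 and 536.

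Copies within a gene family differed in direction in some cases. Of the 80 families and enzymes with at least 2 unigenes compared, 10 had calls in both directions. They were the CYP82A3-like P450s, metallothioneins, aldolases, SWEET transporters, white-brown-complex and sulfate transporters, oligopeptide transporters, orcinol O-methyltransferases, a leucine-rich repeat receptor kinase family and the large pentatricopeptide repeat family. Within a Trinity gene this was rare, since 22 of 4257 Trinity genes with 2 or more unigenes compared (0.517%) had unigenes called in opposite directions. Reads of near-identical copies can be divided between unigenes by the abundance estimate, so values of unigenes within a Trinity gene are less certain than their intervals.

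**Figure D4:**
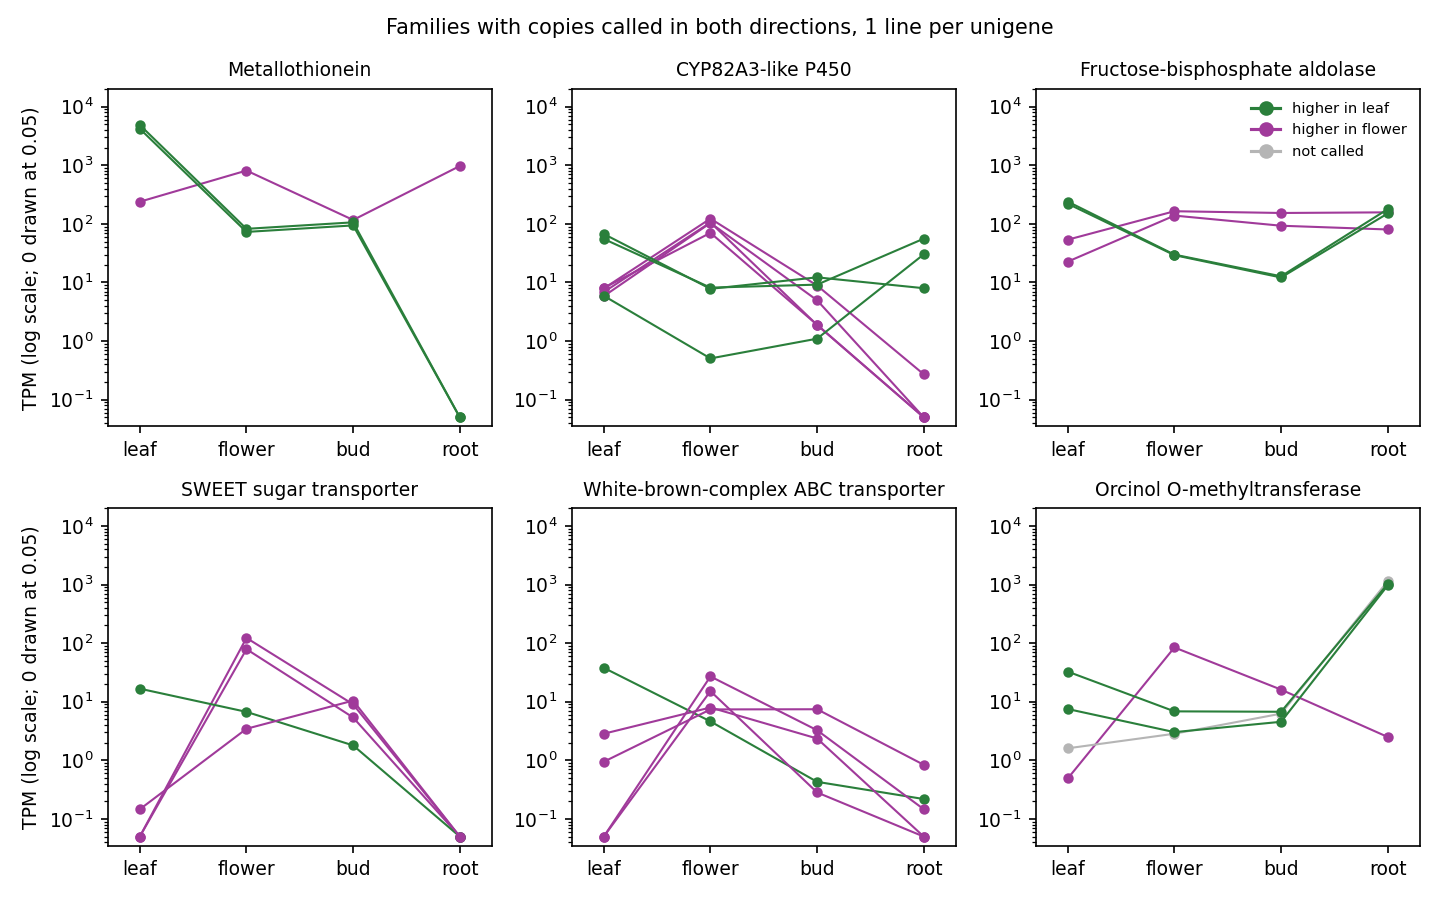
TPM (vertical, log scale, 0 drawn at 0.05) in leaf, flower, bud and root for 6 gene families with copies called in both directions, 1 line per unigene, coloured by its call between leaf and flower. Lines only join values of one unigene, and the flower-high P450 copies fall to 0.271 TPM or 0 in root, where 2 of the leaf-high copies are at 30.2 and 55.9 TPM.

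The clearest calls among the 571 named unigenes added a few functions. In flower, a serine carboxypeptidase-type protein, TR41300|c3_g1_i2, led with 3359 fragments, 12 in bud and 0 in leaf and root, at 220.4 TPM (at least 645-fold higher than in leaf), ahead of the SWEET15, myrcene synthase and beta tubulin unigenes above. TR41062|c1_g1_i4, an ABC transporter, had 349 flower fragments and 0 in leaf (at least 67.00-fold). In leaf, the metallothionein and CDPS2 were joined by a RING finger protein, TR46235|c0_g1_i8, with 46 leaf fragments and 0 in flower (at least 26.6-fold). The calls whose intervals lay farthest from 1 belonged to unigenes without a name. TR36313|c0_g1_i1 had 24077 fragments in leaf and 38 in flower, and TR40714|c0_g1_i3 had 8371 and 16, with 6250 in root. TR32762|c0_g14_i1 had 21666 in flower, 601 in bud and 0 in leaf and root (at least 4177-fold higher in flower than in leaf), and TR27613|c0_g1_i1 had 6849 in flower, 6123 in bud and 0 in leaf and root.

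The called sets were then followed in bud and root, libraries that the leaf to flower ratio does not use. Of the unigenes higher in flower, 3603 had at least 40 fragments in bud and root together, and their median ratio of bud to root TPM was 2.47, with 56.5% higher in bud and 9.44% higher in root by the same rule. Of those higher in leaf, 3082 had enough fragments, with a median of 1.62, 44.2% higher in bud and 19.6% higher in root. Over all 19147 unigenes with enough fragments the median was 1.52, with 38.6% higher in bud and 11.9% in root. Unigenes higher in leaf thus exceeded the background in both directions, and those higher in flower only towards bud.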

How the data were processed

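Leaf and flower libraries of A. carmichaelii were compared, 1 library each, with the bud and root libraries given as levels. The authors trimmed the paired reads with Trimmomatic, pooled all tissues for a Trinity assembly, clustered near-identical transcripts with CD-HIT-EST, mapped each library back with Bowtie 2 and estimated abundances with RSEM. The deposited expected counts are fragments assigned to each unigene, without normalization, and all were whole numbers. The deposited TPM and FPKM divide the expected count by the effective length of the unigene and scale it to a fixed sum or to all mapped fragments of the library. The deposited isoform percent, the share of a unigene within its Trinity gene, was not used. No genome was used, and versions of Trimmomatic, Trinity, CD-HIT-EST and RSEM are not given in the sources used here.

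TPM was recomputed from the expected counts and lay within 0.0528% of the deposited TPM of 10 or more, and the FPKM within 0.0506% of the deposited FPKM. Ratios used an exact conditional binomial (Clopper-Pearson) interval at 95%, with TMM factors of edgeR 4.0.16 and size factors of DESeq2 1.42.0 as other scalings and no test of either tool. A count of 0 entered as 3 fragments. Library totals ran from 4811266 fragments in root to 7057551 in flower. PCR copies are not independent molecules, so intervals cover counting error only. The procedure was tested on simulated libraries.

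Gene names and lists came from the pathway, cytochrome P450, Blastx and orthogroup tables of the paper, of which the last was available in shortened form, so only complete families were used. They rest on similarity to other species, and 391 of the 843 listed unigenes passed the length and count minimum. The members of the comparison and the lists were chosen with earlier results of these data known. Named were all MVA, MEP and prenyl and diterpene synthase unigenes, in each other list the 3 with the most fragments and the 2 per direction whose interval lay farthest from 1, and over all unigenes the 8 annotated and 2 unannotated per direction by the same measure and the 5 highest annotated in each tissue, 1 per Trinity gene. Other count and length minimums, scalings, folds, confidence levels, a pseudocount and sums over Trinity genes were tried.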

Additional observations from a re-analysis of the deposited data

How the results depend on the processing

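With 1 library per tissue, no result has a replicate, and none can show whether a difference would recur in other plants. No paired analysis was possible because each tissue had 1 library. The counts of unigenes higher in leaf and in flower stayed within 1.5 times the main counts of 4171 and 4482 except as follows. With a 4-fold limit they were 1953 and 2292. With a minimum of 100 fragments, which compares fewer unigenes, flower had 2777, and with the whole interval past 2-fold flower had 2781. The median log2 ratio of leaf to flower was -0.13 with TMM over all unigenes, -0.44 with FPKM and -0.21 with FPKM after TR43559|c0_g1_i1 was left out, an alternative chosen after seeing the data. TMM over the unigenes compared moved none of the 63 list results by more than the margin used, a 0.1 change of a median or 1.5 times a count, and DESeq2 size factors moved 1.

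A few list medians changed sign. For pentatricopeptide repeat proteins the median log2 ratio was -0.073 with TMM over all unigenes, -0.38 with FPKM and -0.15 with FPKM without TR43559|c0_g1_i1. On the FPKM scale it was -0.17 for chaperones, -0.032 for sugar metabolism and -0.26 for transcription factors, and -0.033 for the last without TR43559|c0_g1_i1. With a minimum of 100 fragments it was -0.18 for the list of CYP82A3-like and TR47900|c2_g2 P450s and -1.81 for receptor kinases. For protein turnover it was 0.074 with no length minimum and 0.00010 with sums over Trinity genes. FPKM moved a further 28 of the 63 list results, and sums over Trinity genes, which make fewer units, moved 23.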
